A study of Rattus norvegicus with 60 samples.

Results

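The transcripts described here code for proteins of the synaptic vesicle and of its fusion with the nerve terminal membrane, 38 genes taken from a list by gene symbol and followed through 5 regions of the rat brain and 2 rat lines. The list was drawn up by function, and earlier results of these data were known when it was chosen. Doc2a had no probe set in the table used and was not analysed here. The other 37 genes carried 59 of the 31042 probe sets, a probe set being the array's unit for a transcript. Of these, 50 probe sets of 34 genes lay at or above the limit set on low signal, among 18625 probe sets and 10378 named genes that did so. Rab3c, Rph3a and Sv2c lay under it and were not tested. Each gene was described by its probe set of highest mean signal.

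RNA was taken from accumbens, amygdala, frontal cortex, hippocampus and striatum of 12 adult rats and hybridized to 60 arrays, 1 for each region of each animal. The 6 NP animals came from a line selected for not preferring alcohol. The 6 congenic NP.P animals have the NP background with part of chromosome 4 from the P line, which prefers alcohol; this is known of the study and is not in the labels. The series title asks which genes in such strains are candidates for alcohol preference. All animals were housed in pairs with free food and water and were handled daily before decapitation.

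On 7 of the 60 arrays the profile did not match the labelled region as the other arrays did, and the labels were left as deposited. The array labelled amygdala congenic 3 correlated best with the hippocampal profile (0.699) and that labelled hippocampus congenic 3 best with the amygdala profile (0.742). Accumbens NP 8 correlated best with hippocampus (0.655), and hippocampus NP 8 best with accumbens (0.388). The other arrays were amygdala NP 6, accumbens congenic 9 and hippocampus NP 11. Every count was therefore also taken without these 7 arrays. The median log2 signal of an array ran from 8.23 to 8.35. Precision is limited by the 6 animals per line.

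The labelled regions were checked against marker genes. All 11 measured markers of medium spiny neurons, the main neurons of striatum, were higher in striatum, and 10 of 11 in accumbens. In hippocampus 6 of 8 markers of hippocampal principal neurons were higher. For cortical excitatory neurons 9 markers were measured, of which 6 were higher and 2 lower in frontal cortex, and 5 were also higher and 1 lower in striatum. In amygdala 3 of 6 markers of amygdala and hypothalamus and 3 of 5 thalamic markers were higher and 1 of the latter lower, where 33.9% of all genes were higher. The markers of amygdala and hypothalamus were also higher for 3 of 6 in accumbens. Of the hippocampal principal neuron markers, 4 of 8 were higher and 2 lower in amygdala. These lists therefore do not single out amygdala. In bulk tissue, fewer cells of a type and less RNA per cell cannot be told apart.

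Synaptic vesicles are loaded with transmitter by transporters in their membrane, tethered near the active zone by Rab3 and scaffold proteins, primed by Munc13 proteins and fused by the SNARE proteins syntaxin, SNAP-25 and synaptobrevin. Complexins hold the SNARE bundle ready, synaptotagmins couple fusion to calcium entry, and NSF with its adaptors takes the bundle apart afterwards. Neurons that release glutamate load it with VGLUT1, coded by Slc17a7 and typical of cortex and hippocampus, or VGLUT2, coded by Slc17a6 and typical of thalamus and deeper nuclei. Medium spiny neurons, the main cells of striatum and accumbens, release GABA.

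The sequence before the start is shown here for the 7 genes whose region means spanned the most, since some of them were highest in the same region and others in different ones. The windows hold 250 bases upstream of the annotated start, from RefSeq on the GRCr8 build, written 5′ to 3′ on the gene's own strand. Capitals mark the GC box GGGCGG, the box with the letters CCAAT and the EGR site GCGGGGGCG. They also mark the cyclic AMP response element TGACGTCA and its core TGACG, which lies inside the whole element. Each was searched on both strands. Genes of the list matched 31 windows of 30 genes.
Slc17a6, chr1:110348197-110348446, plus strand: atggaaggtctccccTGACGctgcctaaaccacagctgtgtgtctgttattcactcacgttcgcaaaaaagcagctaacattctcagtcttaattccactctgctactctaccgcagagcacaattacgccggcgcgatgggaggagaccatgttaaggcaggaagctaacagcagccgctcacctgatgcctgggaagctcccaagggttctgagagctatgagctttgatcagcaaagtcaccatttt
Slc17a7, chr1:104785955-104786204, plus strand: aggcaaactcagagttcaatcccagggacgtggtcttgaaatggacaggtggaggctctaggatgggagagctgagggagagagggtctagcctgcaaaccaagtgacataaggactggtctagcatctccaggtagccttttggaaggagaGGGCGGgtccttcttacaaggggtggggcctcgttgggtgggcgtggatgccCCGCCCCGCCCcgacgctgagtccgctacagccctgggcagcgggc
Unc13c, chr8:83553823-83554072, minus strand: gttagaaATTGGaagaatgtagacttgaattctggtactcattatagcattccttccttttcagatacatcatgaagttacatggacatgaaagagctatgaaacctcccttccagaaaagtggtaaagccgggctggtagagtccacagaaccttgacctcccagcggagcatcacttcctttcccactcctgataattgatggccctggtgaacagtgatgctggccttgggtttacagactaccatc
Syt11, chr2:176529776-176530025, minus strand: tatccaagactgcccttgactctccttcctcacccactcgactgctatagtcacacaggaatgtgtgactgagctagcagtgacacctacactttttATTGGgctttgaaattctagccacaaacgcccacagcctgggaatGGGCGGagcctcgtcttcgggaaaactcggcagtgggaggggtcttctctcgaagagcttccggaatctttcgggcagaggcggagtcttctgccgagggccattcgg
Stx1a, chr12:27306472-27306721, minus strand: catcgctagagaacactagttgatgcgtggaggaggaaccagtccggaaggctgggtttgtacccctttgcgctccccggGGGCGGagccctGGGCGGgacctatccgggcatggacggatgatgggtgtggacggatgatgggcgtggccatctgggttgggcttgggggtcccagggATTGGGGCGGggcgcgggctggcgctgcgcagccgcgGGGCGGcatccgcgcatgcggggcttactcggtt
Syn1, chrX:3725495-3725744, plus strand: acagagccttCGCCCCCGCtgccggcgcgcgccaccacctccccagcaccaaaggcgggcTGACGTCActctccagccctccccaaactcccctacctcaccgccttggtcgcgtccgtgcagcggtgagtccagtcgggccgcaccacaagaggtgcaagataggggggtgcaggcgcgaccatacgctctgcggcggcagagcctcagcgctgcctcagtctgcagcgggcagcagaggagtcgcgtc
Cplx2, chr17:10236754-10237003, minus strand: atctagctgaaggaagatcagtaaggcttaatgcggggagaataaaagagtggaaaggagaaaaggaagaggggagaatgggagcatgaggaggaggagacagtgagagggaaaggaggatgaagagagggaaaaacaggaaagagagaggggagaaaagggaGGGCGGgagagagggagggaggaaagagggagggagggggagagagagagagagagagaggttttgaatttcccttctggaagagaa

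A GC box stood in 23 of the 31 windows (74.2%), against 30.5% of all 33465 windows of this length. An EGR site stood in 7 windows (22.6%, against 2.45% of all) and a cyclic AMP response element in 3 (9.68%, against 1.59%), those of Syn1, Vamp1 and Napa. None of the 31 held TATAAA, found in 12.9% of all windows, and their median GC content was 64.8%, against 51.2%. CCAAT was as frequent in these windows (35.5%) as in all (34%), and the core TGACG stood in 32.3% against 18.2%. CANNTG, the E box, stood in 64.5% against 65.5%. No member window held RE1, the element bound by the repressor REST, or its left part. Both are rare in all windows (0.0269% and 0.305%), so their absence from 31 windows says little. The 33465 windows were neither limited to the genes tested here nor matched for GC content. These counts describe letters in a window. The window of Slc17a6 has a GC content of 50.8% and no GC box while that of Slc17a7 has 61.2% and 3 of them.

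Each region was set against the mean of the other 4 with the animal as a block, and a gene was called at an adjusted p under 0.05 (limma, Benjamini-Hochberg over all probe sets tested). The 5 contrasts share their arrays and are not independent. By their brightest probe sets all of the 34 vesicle genes but Nsf were called in at least 1 region. This count was not taken over all genes, large shares of which were called in each region, so it does not set the list apart. In accumbens 23 of the 34 genes were lower and 3 higher, against 40.8% and 22.5% of all genes tested. Striatum held 19 higher and 5 lower, against 23.3% higher and 49.8% lower of all genes. Frontal cortex held 15 higher (39% of all genes) and 12 lower (24.9%), hippocampus 8 higher (37.8%) and 13 lower (19.2%), and amygdala 7 higher (33.9%) and 10 lower (16.6%). The shares of the list lower in accumbens, amygdala, hippocampus and frontal cortex and higher in striatum lay above the background. The share higher in frontal cortex lay near it, and those higher in accumbens, amygdala and hippocampus and lower in striatum lay below it.

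The median log2 difference of the 34 genes was -0.233 in accumbens, where that of all genes tested was -0.0531. In striatum it was 0.177, where all genes stood at -0.0975. The medians of the list were 0.051 in frontal cortex, 0.00348 in hippocampus and -0.000178 in amygdala, where all genes stood at 0.043, 0.052 and 0.0469. Without the 7 arrays, accumbens held 4 higher and 23 lower, against 23.5% and 48.3% of all genes, and striatum 20 higher and 7 lower, against 26.5% and 53.2%. Frontal cortex held 16 and 13 (45.1% and 28.3%), hippocampus 11 and 15 (40.3% and 25.2%) and amygdala 8 and 14 (44.5% and 20.3%). More genes were called in each region without these arrays, in the list and among all genes.

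**Figure D1:**
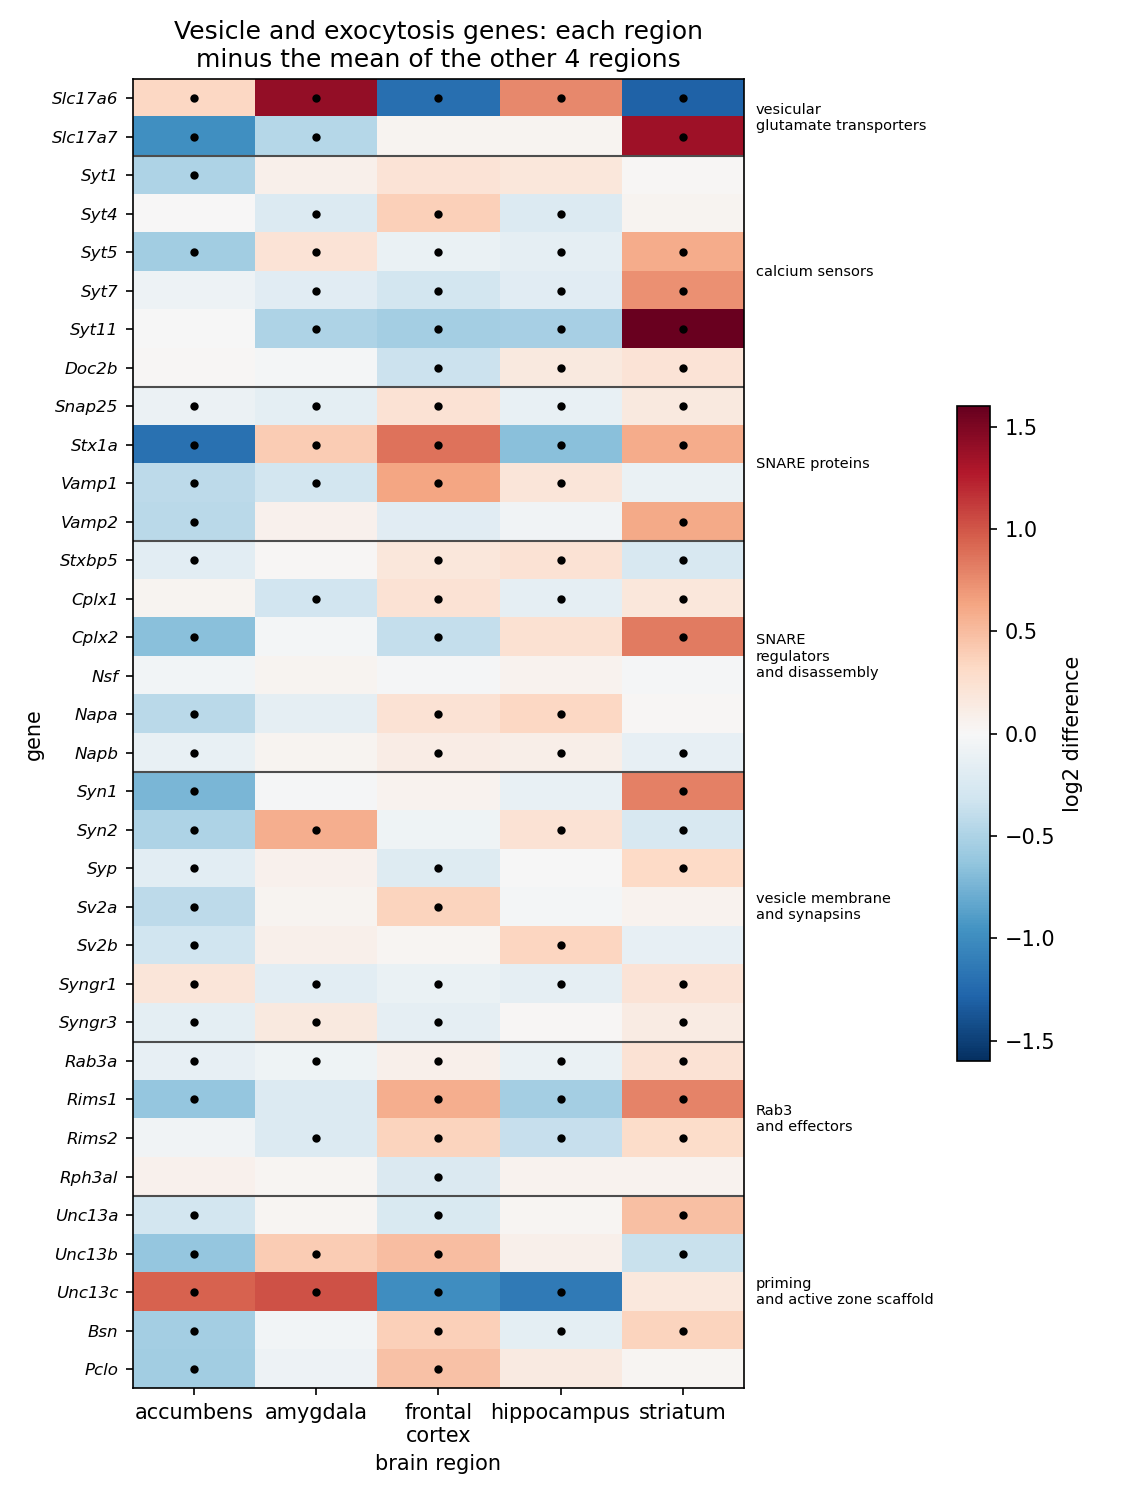
Log2 difference of each region (columns) from the mean of the other 4, for the 34 genes tested (rows, grouped by role), on a colour scale from blue (lower) to red (higher). Dots mark an adjusted p under 0.05 in limma over all 60 arrays. Most of the accumbens column is blue, with 23 genes called lower, and much of the striatum column is red, with 19 called higher.

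The highest mean of a gene fell in striatum for 13 genes, in frontal cortex for 12, in amygdala for 4, in hippocampus for 4 and in accumbens for 1. Striatum and frontal cortex held 11 each, hippocampus 6, amygdala 4 and accumbens 2 when the 7 arrays were left out. The highest region was not counted over all genes tested, so these numbers describe the list alone. Differences of at least 2-fold from the mean of the other regions were few. Slc17a6 and Unc13c were at least 2-fold higher in amygdala and Slc17a7 and Syt11 in striatum, while Slc17a6 was at least 2-fold lower in striatum and in frontal cortex, Unc13c in hippocampus and Stx1a in accumbens. Without the 7 arrays Unc13c was also at least 2-fold higher in accumbens. The share of all genes at least 2-fold higher was 0.308% in amygdala and 0.597% in striatum. The share at least 2-fold lower was 0.328% in striatum, 0.675% in frontal cortex, 0.52% in hippocampus and 0.27% in accumbens. At the other end stood Nsf, the ATPase that disassembles the SNARE bundle, whose brightest probe set was called in no region and spanned 0.08 log2 units between region means.

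The 2 vesicular glutamate transporters differed in order, with striatum among the lowest for Slc17a6 and the highest for Slc17a7 and hippocampus in between for both. Slc17a6 (VGLUT2, probe set 1368564_at) lay in amygdala between 9.19 and 11.51 log2 units with a median of 11.08 over 12 arrays. In hippocampus it lay between 9.67 and 11.25 (median 10.22) and in accumbens between 9.47 and 10.59 (median 9.97). In frontal cortex it lay between 8.18 and 9.28 (median 8.59) and in striatum between 8.28 and 8.91 (median 8.65). Every array of frontal cortex and striatum lay below every array of hippocampus and accumbens, and amygdala overlapped with both of the latter. The lowest amygdala array is the one labelled NP 6, which stands apart, and without the 7 arrays amygdala lay between 10.34 and 11.51.

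Slc17a6 was 1.41 ± 0.13 log2 units (SE) higher in amygdala than in the other regions (adjusted p = 2.61e-12), and lower in striatum by a difference of -1.29 (2.81e-12) and in frontal cortex by -1.21 (3.22e-11). It was higher in hippocampus by 0.77 (2.15e-06) and in accumbens by 0.33 (adjusted p = 0.0251). Its mean in amygdala was 4.47-fold that in striatum. Among neighbours in this order, amygdala and hippocampus differed (0.51, adjusted p = 0.0165), as did accumbens and frontal cortex (1.23, 7.19e-09). Hippocampus and accumbens did not pass the threshold (0.36 ± 0.16 apart, adjusted p = 0.0533) with all arrays and passed it without the 7 (0.00455). Frontal cortex and striatum did not differ beyond their spread (0.07, adjusted p = 0.725). Thalamic markers, summed as a mean log2 signal, had medians of 9.26 in amygdala, 9.21 in hippocampus, 9.08 in accumbens, 9.02 in frontal cortex and 8.66 in striatum. The means of Slc17a6 had this order, while by its medians striatum lay above frontal cortex. Single thalamic markers did not all follow the order of the summed signal. Their part in the level of Slc17a6 was not tested.

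Slc17a7 (VGLUT1, probe set 1368987_at) was highest in the tissue labelled striatum, where all 12 arrays lay between 12.71 and 13.46 with a median of 13.14. It lay between 10.50 and 12.40 in frontal cortex (median 12.21), between 11.36 and 12.67 in hippocampus (median 12.13), between 10.68 and 12.52 in amygdala (median 11.77) and between 9.00 and 12.38 in accumbens (median 11.35). Every array of striatum lay above every array of the other regions. The difference of striatum from the other regions was 1.35 ± 0.17 (adjusted p = 9.75e-10), and a further probe set of the gene gave 1.42 (2.40e-11). Accumbens was lower by -0.98 (2.14e-06; -0.99 with the further probe set).

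In the order of its levels, Slc17a7 differed between striatum and hippocampus (1.05, adjusted p = 2.35e-05) and not beyond the spread between hippocampus and frontal cortex (0.00, 0.991). Frontal cortex and amygdala were 0.41 apart (adjusted p = 0.113), a difference that passed without the 7 arrays (0.49, 0.00491). Amygdala and accumbens were 0.41 apart (adjusted p = 0.0895). The mean signal of the markers of cortical excitatory neurons lay between 10.30 and 10.49 in the tissue labelled striatum (median 10.38). It lay between 10.18 and 10.45 in frontal cortex (median 10.41) and between 9.47 and 10.07 in accumbens (median 9.68). Of the 9 markers, 6 had a lower mean in striatum than in frontal cortex, such as Lamp5 (12.57 and 13.34) and Neurod6 (10.95 and 11.75). The other 3 were higher in striatum: Bcl11b, which medium spiny neurons also express (12.07 and 10.59, with 12.31 in accumbens), Nr4a2 (9.81 and 8.13) and Tbr1 (9.18 and 8.57). The part of these markers in the level of Slc17a7 was not tested. Markers of medium spiny neurons were highest in striatum on the same arrays, with medians of 12.14 there, 11.70 in accumbens and 9.28 in frontal cortex.

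**Figure D2:**
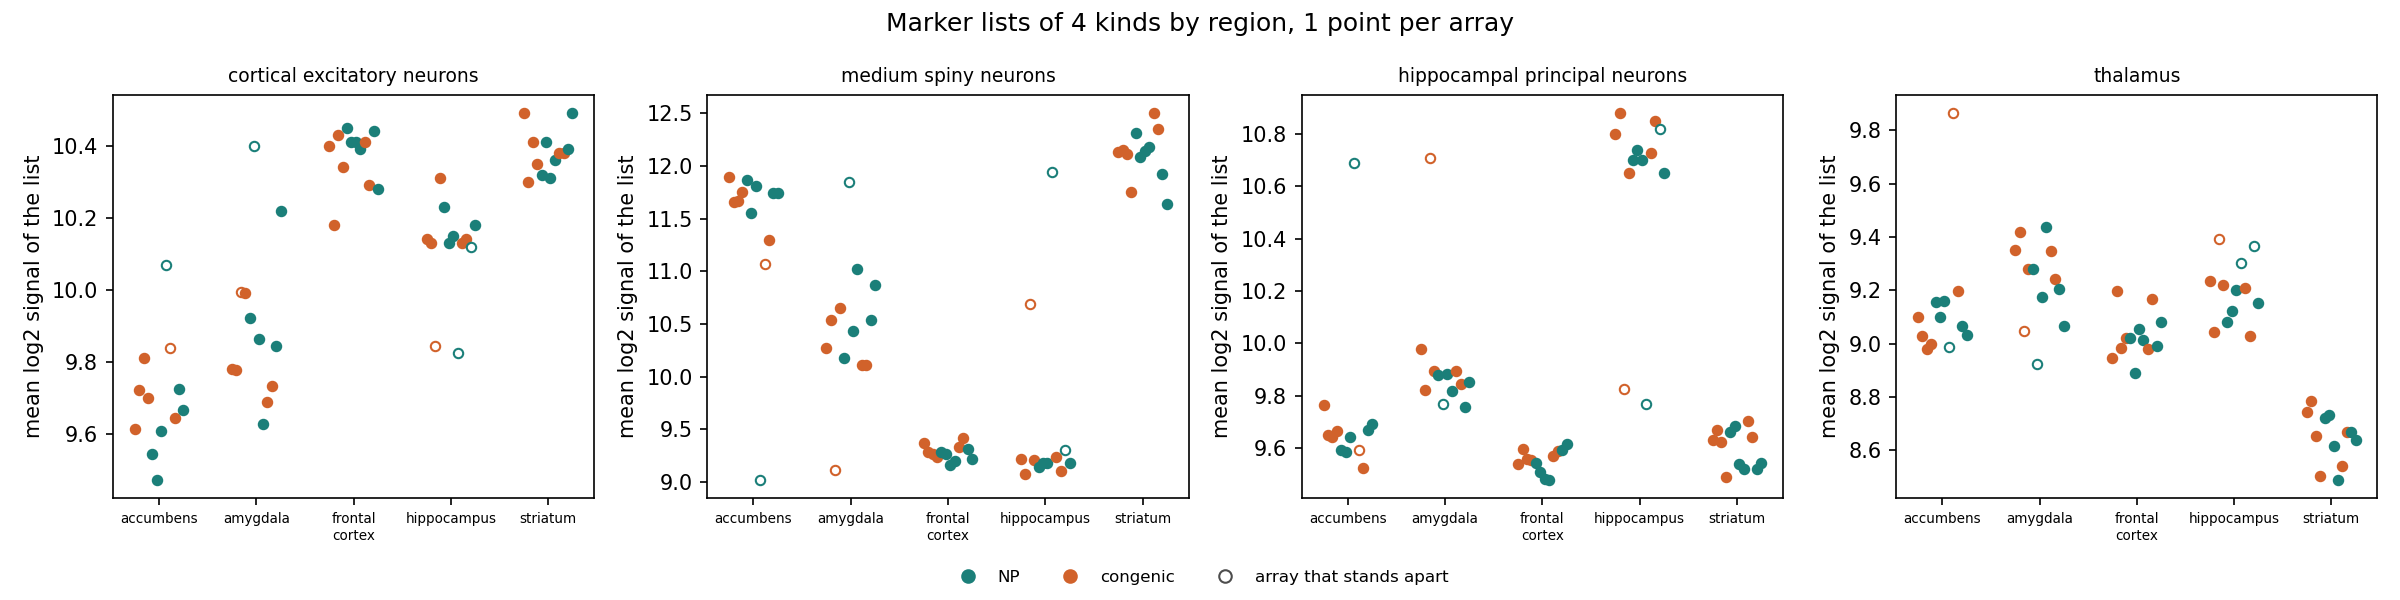
Mean log2 signal of 4 lists of marker genes (1 panel each) on every array, by region, with NP animals in green and congenic animals in orange and open circles for the 7 arrays that stand apart. The mean of the cortical excitatory markers has a median of 10.38 in striatum and 10.41 in frontal cortex, although 6 of the 9 genes are lower in striatum, and the thalamic markers are lowest in striatum (8.66).

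The counts by role below hold 2 to 7 genes each and are a description, to be read against the shares of all genes: 40.8% lower in accumbens, 23.3% higher in striatum, 39% higher and 24.9% lower in frontal cortex and 19.2% lower in hippocampus. Among the calcium sensors and related synaptotagmins, 4 of 6 genes tested were higher and none lower in striatum, while 4 of 6 were lower and 1 higher in frontal cortex and likewise in hippocampus. Syt11, a synaptotagmin that lacks the calcium binding of its relatives, had the largest single difference of the list with all arrays, and came after Unc13c in hippocampus (-1.68) and Slc17a6 in amygdala (1.68) without the 7, at 1.56. In striatum its 12 arrays lay between 10.06 and 10.57 (median 10.42). In accumbens it lay between 8.13 and 9.40 (median 9.21), in amygdala between 8.34 and 9.46 (median 8.64), in frontal cortex between 8.31 and 8.90 (median 8.74) and in hippocampus between 8.14 and 9.08 (median 8.69). No array of another region reached the striatal range. The difference was 1.58 ± 0.08 (adjusted p = 1.89e-22), or 2.98-fold. Accumbens came next and differed from amygdala (0.38, adjusted p = 0.000709), and amygdala, hippocampus and frontal cortex did not differ beyond their spread (0.04 between amygdala and hippocampus, 0.846; 0.01 between hippocampus and frontal cortex, 0.934).

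Syt7, a sensor of slow and asynchronous release, was also higher in striatum by 0.74 ± 0.04 (adjusted p = 3.12e-19) and lower in frontal cortex, amygdala and hippocampus (-0.29, -0.18 and -0.18). Syt5 was higher in striatum by 0.59 (4.66e-16) and in amygdala by 0.22, and lower in accumbens by -0.55 (7.77e-15). Syt4 was called higher in frontal cortex alone (0.38, 3.31e-13) and lower in amygdala and hippocampus (both -0.22). Its further probe set was called in none of these regions with all arrays. It gave 0.39 in frontal cortex (adjusted p = 0.0646), 0.11 in amygdala (0.663) and 0.07 in hippocampus (0.776). Doc2b, a soluble calcium sensor, was lower in frontal cortex (-0.35, 3.34e-07) and higher in striatum (0.21) and hippocampus (0.15).

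Syt1, the main sensor of fast release, was called in accumbens alone (-0.50 ± 0.19, adjusted p = 0.0203). There 1 array, labelled congenic 9, lay at 7.94, whereas the median of the region was 12.23. Without the 7 arrays the accumbens difference was -0.19 (0.000371), hippocampus was higher by 0.27 (7.98e-06) and frontal cortex by 0.10 (0.0355), and striatum was lower by -0.10 (0.0264).

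The SNARE genes were lower in accumbens throughout, 4 of 4 tested. Stx1a, the syntaxin of the plasma membrane, was the lowest of all genes of the list there. Its accumbens arrays lay between 9.83 and 11.02 (median 10.64) and its hippocampal arrays between 10.73 and 11.84 (median 10.97). Amygdala lay between 11.05 and 12.14 (median 11.98), striatum between 11.84 and 12.31 (median 12.09) and frontal cortex between 11.78 and 12.49 (median 12.33). Accumbens thus overlapped hippocampus and no array of the other regions.

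Stx1a differed by -1.20 ± 0.08 in accumbens (adjusted p = 1.04e-16) and by -0.67 in hippocampus (4.86e-09), and was higher in frontal cortex by 0.87 (1.24e-12), in striatum by 0.59 (2.43e-08) and in amygdala by 0.40 (9.69e-05). A further probe set gave -1.46 in accumbens and 0.86 in frontal cortex. Frontal cortex was 3.15-fold accumbens. Frontal cortex and striatum were 0.23 apart (adjusted p = 0.0524, and 0.002 without the 7 arrays), striatum and amygdala 0.15 (0.196), amygdala and hippocampus 0.86 (1.18e-07) and hippocampus and accumbens 0.42 (0.000582).

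Snap25, its partner on the plasma membrane, was called in all 5 regions with small differences, from -0.16 in amygdala to 0.23 ± 0.02 in frontal cortex (3.51e-14). The 2 synaptobrevins, on the vesicle side, differed in order. Vamp2 was higher in striatum by 0.61 (6.14e-08) and lower in accumbens (-0.43, 6.20e-05). Vamp1 was higher in frontal cortex by 0.63 (3.31e-12) and in hippocampus by 0.19, and lower in accumbens (-0.42) and amygdala (-0.29). Of its further probe sets, 1370556_at followed in frontal cortex (0.65) and 1387519_at was opposite in sign there (-0.17, 0.000889) in hippocampus (-0.28, 6.49e-07) and in accumbens (0.30, 1.27e-07), so the order of Vamp1 holds for the brightest probe set.

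Of the regulators of the SNARE bundle, 4 of 6 were higher in frontal cortex and 4 lower in accumbens. Cplx2, a complexin, lay in striatum between 9.94 and 10.66 (median 10.36) and in hippocampus between 9.11 and 10.26 (median 9.89). It lay in amygdala between 8.38 and 10.10 (median 9.91), in frontal cortex between 8.20 and 9.82 (median 9.55) and in accumbens between 7.94 and 9.71 (median 9.24). Striatum lay above all arrays of frontal cortex and accumbens and overlapped hippocampus and amygdala. Striatum was 0.83 ± 0.13 higher (adjusted p = 1.54e-07), accumbens lower by -0.67 (1.29e-05) and frontal cortex lower by -0.38 (0.00887).

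In the order of Cplx2, striatum and hippocampus differed (0.47, adjusted p = 0.00928). The neighbours below did not differ beyond their spread: hippocampus and amygdala by 0.22 (0.354), amygdala and frontal cortex by 0.28 (0.152), and frontal cortex and accumbens by 0.23 (0.199). Its relative Cplx1 was higher in frontal cortex (0.24, 1.51e-07) and striatum (0.18, 1.47e-05) and lower in amygdala (-0.31, 1.04e-09). A further probe set of Cplx1 gave 1.06 in striatum (7.57e-11) and -0.40 in accumbens, where the brighter one gave 0.04. In frontal cortex the further probe set gave -0.06 and was not called (adjusted p = 0.684).

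Napa and Napb, the adaptors of NSF, were lower in accumbens (-0.43, 1.56e-07, and -0.12, 0.00594) and higher in frontal cortex (0.23 and 0.11). Napa was also higher in hippocampus by 0.33 (3.52e-05). Stxbp5, tomosyn, an inhibitor that occupies syntaxin, was higher in hippocampus (0.24, 4.61e-07) and frontal cortex (0.18) and lower in striatum (-0.26, 2.11e-08) and accumbens (-0.17).

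Genes of the vesicle membrane and the synapsins were lower in accumbens for 6 of 7 and higher in striatum for 4 of 7. Syn1, which ties vesicles to actin, was higher in striatum by 0.81 ± 0.06 (3.17e-17) and lower in accumbens by -0.73 (2.60e-15), with no call in the other 3 regions. Syn2 had another order: it was higher in amygdala by 0.58 (4.38e-12) and in hippocampus by 0.23 and lower in accumbens (-0.49) and striatum (-0.26, 5.05e-05). In striatum neither further probe set of Syn2 was called (-0.16, adjusted p = 0.295, and -0.17, 0.169). The accumbens arrays of Syn2 lay between 10.93 and 11.59 and those of amygdala between 11.68 and 12.22, without overlap.

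Syp, the abundant vesicle protein synaptophysin, was higher in striatum by 0.32 (4.11e-11) and lower in frontal cortex by -0.21. Of the vesicle glycoproteins, Sv2a was higher in frontal cortex by 0.36 (1.53e-08) and lower in accumbens by -0.42 (2.91e-10), and Sv2b was higher in hippocampus by 0.34 (0.0117) and lower in accumbens by -0.31. In hippocampus the further probe set of Sv2b gave 0.23 and was not called (adjusted p = 0.142). Of the synaptogyrins, Syngr1 was the sole gene of this group higher in accumbens (0.20, 0.000516). Syngr3 was higher in amygdala and striatum (0.15 and 0.13) and lower in accumbens and frontal cortex (-0.16 and -0.14).

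Of Rab3a and the 3 Rab3 effectors tested, 3 of 4 were higher in striatum and the same number in frontal cortex. Rims1, the active zone scaffold that binds Rab3, was higher in striatum by 0.79 ± 0.14 (3.09e-06) and frontal cortex by 0.58, and lower in accumbens (-0.62, 0.00021) and hippocampus (-0.54). Without the 7 arrays its accumbens difference was -0.34 (1.33e-06). Rims2 shared the calls in frontal cortex (0.35, 1.14e-06), striatum (0.29) and hippocampus (-0.36) but was not called in accumbens (-0.06). Rab3a spanned 0.29 log2 units, with striatum higher by 0.23 (3.46e-10). Its further probe set gave 0.47 in striatum and was not called (adjusted p = 0.0641). Rph3al, a Rab effector known from secretory cells, was called in frontal cortex alone (-0.23, 1.51e-06).

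The Munc13 genes, which prime vesicles, each had an order of their own. Unc13c lay in amygdala between 7.69 and 10.33 (median 9.95), in accumbens between 7.94 and 10.16 (median 9.85) and in striatum between 8.58 and 9.32 (median 9.15). It lay in frontal cortex between 7.76 and 8.44 (median 8.16) and in hippocampus between 7.32 and 10.12 (median 7.70). The lowest arrays of amygdala and accumbens and the highest of hippocampus were among the 7 that stand apart. Without those 7, amygdala lay between 9.60 and 10.33, accumbens between 9.53 and 10.16 and hippocampus between 7.32 and 7.94, with no overlap between the last and the other two.

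Unc13c was higher in amygdala by 1.01 ± 0.21 (7.22e-05) and accumbens by 0.94 (0.000124), and lower in hippocampus by -1.14 (9.66e-06) and frontal cortex by -0.99 (5.58e-05). Without the 7 arrays these were 1.32, 1.16, -1.68 and -0.98. Amygdala and accumbens did not differ beyond their spread (0.06, adjusted p = 0.852), accumbens and striatum did (0.61, 0.0428), and so did striatum and frontal cortex (0.93, 0.00165). Frontal cortex and hippocampus were 0.12 apart (0.756) and 0.56 apart without the 7 arrays (1.21e-06).

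Unc13b was higher in frontal cortex and amygdala (0.50, 3.07e-08, and 0.40) and lower in accumbens and striatum (-0.62, 1.40e-10, and -0.36). Unc13a was higher in striatum (0.48, 5.34e-08) and lower in accumbens and frontal cortex (-0.29 and -0.24). Bsn and Pclo, the large scaffolds Bassoon and Piccolo, were both lower in accumbens (-0.54, 2.39e-14, and -0.56, 1.56e-05) and higher in frontal cortex (0.38 and 0.47). Bsn was also higher in striatum by 0.36 (1.41e-09), where Pclo was at 0.03 (0.836).

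**Figure D3:**
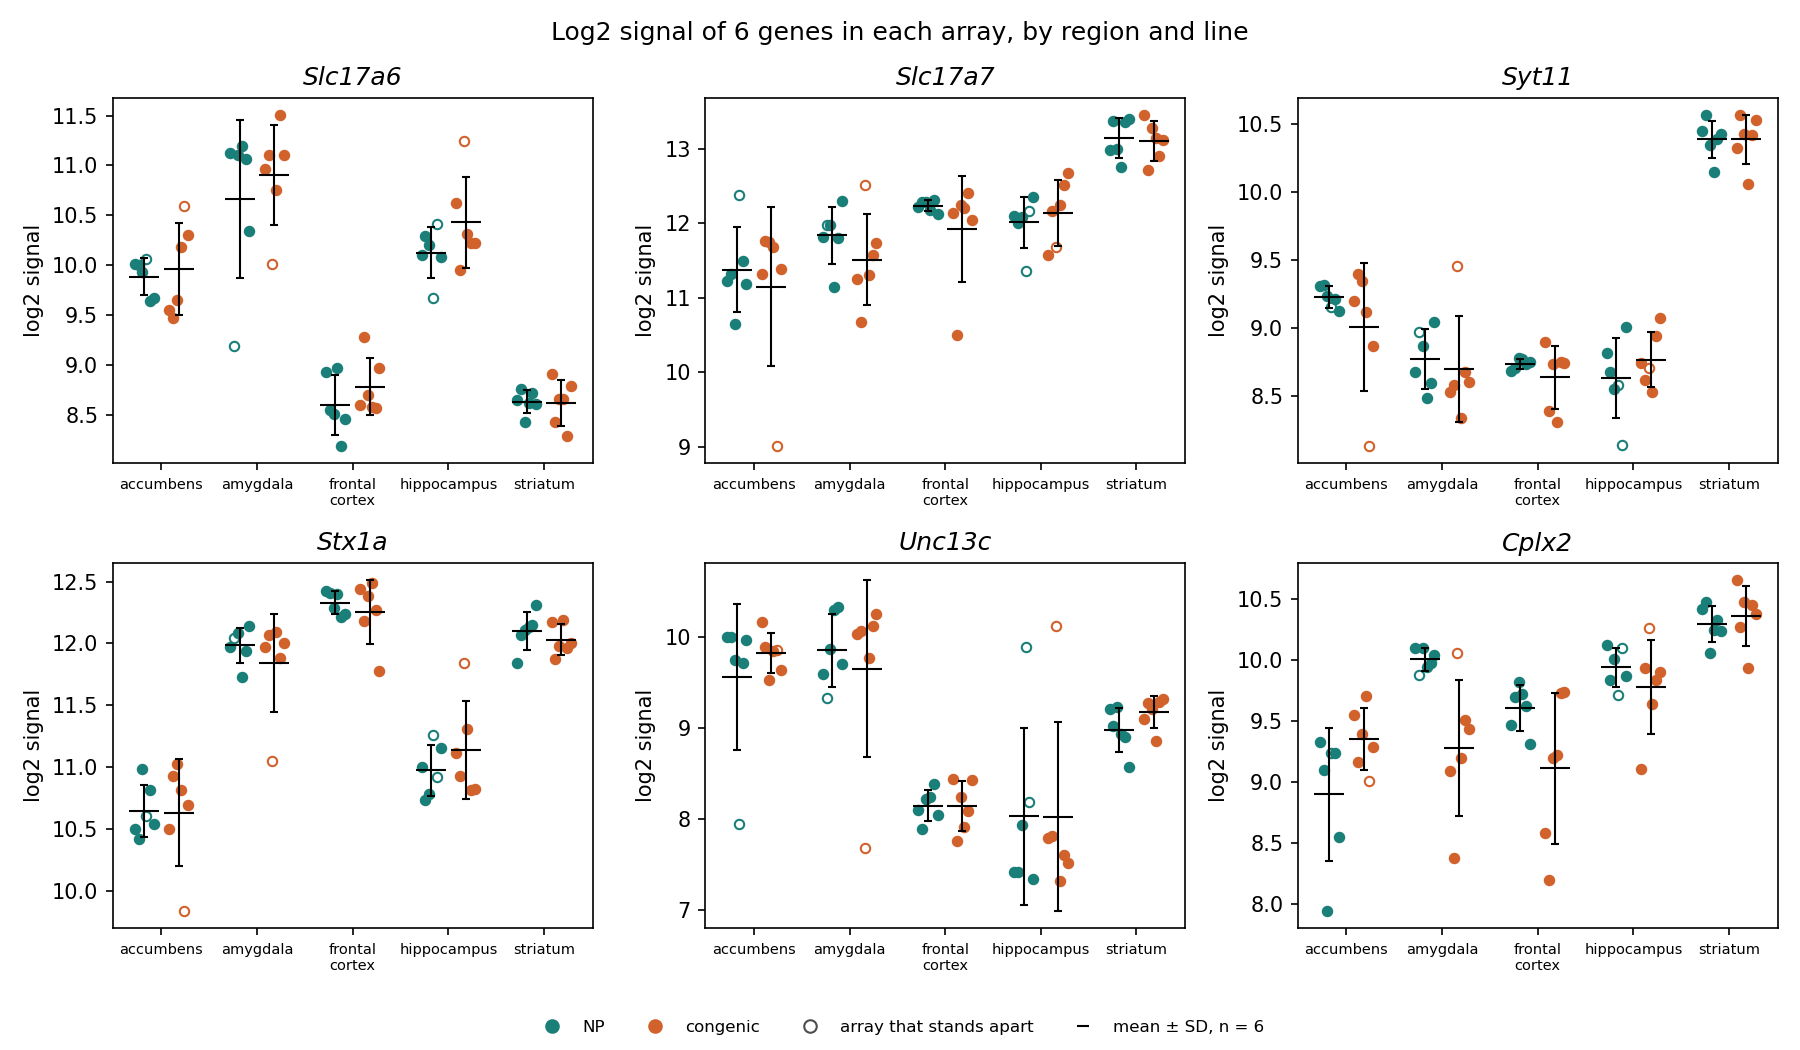
Log2 signal (vertical axis) of Slc17a6, Slc17a7, Syt11, Stx1a, Unc13c and Cplx2 on every array, by region, with NP animals in green and congenic animals in orange, open circles for the 7 arrays that stand apart, and bars for the mean ± SD of 6 animals. Slc17a6 is highest in amygdala (median 11.08) and Slc17a7 in striatum (median 13.14), and the lowest Unc13c value of amygdala (7.69) and the highest of hippocampus (10.12) are open circles.

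The size of the accumbens differences varied with the probe set. Of the 34 genes, 12 had 16 further probe sets above the limit, and 13 of these 16 lay below the brightest probe set of the same gene in the accumbens contrast, with a median of -0.583 against -0.243. For Rab3a the further probe set gave -0.81 against -0.13, for Sv2b -0.82 against -0.31, and for Syt4 -0.61 against 0.01. The 2 further probe sets of Nsf were called lower, at -0.56 (adjusted p = 0.0179) and -0.39 (0.0413), where the brightest gave -0.05 and was not called. In striatum and in amygdala 3 of the 16 lay below the brightest, in hippocampus 7 and in frontal cortex 8. No such count was taken over other genes. Over all 50 probe sets of the list, 36 were lower and 5 higher in accumbens, against 38.9% and 23.5% of all probe sets tested.

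When the 7 arrays were left out, 11 of the 16 further probe sets lay below the brightest in accumbens, and the medians were -0.249 and -0.31, so that the further ones were no longer the lower by median. Frontal cortex then had more below the brightest, 14 of the 16, with medians of -0.061 and 0.08. Amygdala had 6, hippocampus 5 and striatum 3. The further probe set of Rab3a then gave -0.33 against -0.15, that of Syt4 -0.25 against -0.03 and that of Sv2b -0.70 against -0.41. Those of Nsf gave -0.16 (adjusted p = 0.000194) and -0.06 (0.152) against 0.04. For Syn2 1369482_a_at gave -0.88 and 1382850_at -0.51 against -0.60. Accumbens congenic 9 was the lowest array of its group for 23 of the 34 genes, and its 3′ probe set of GAPDH lay 4.56 log2 units above the 5′ one, where the region's median was -0.04. For beta-actin the median 3′ minus 5′ difference was 1.06 in accumbens, 1.10 in striatum, 1.07 in frontal cortex, 0.931 in amygdala and 0.888 in hippocampus. The 75th percentile of the arrays had medians of 9.82 in accumbens and 9.84 in striatum and of 9.96 to 9.97 in the other regions. The part of these values in the accumbens differences was not tested.

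**Figure D4:**
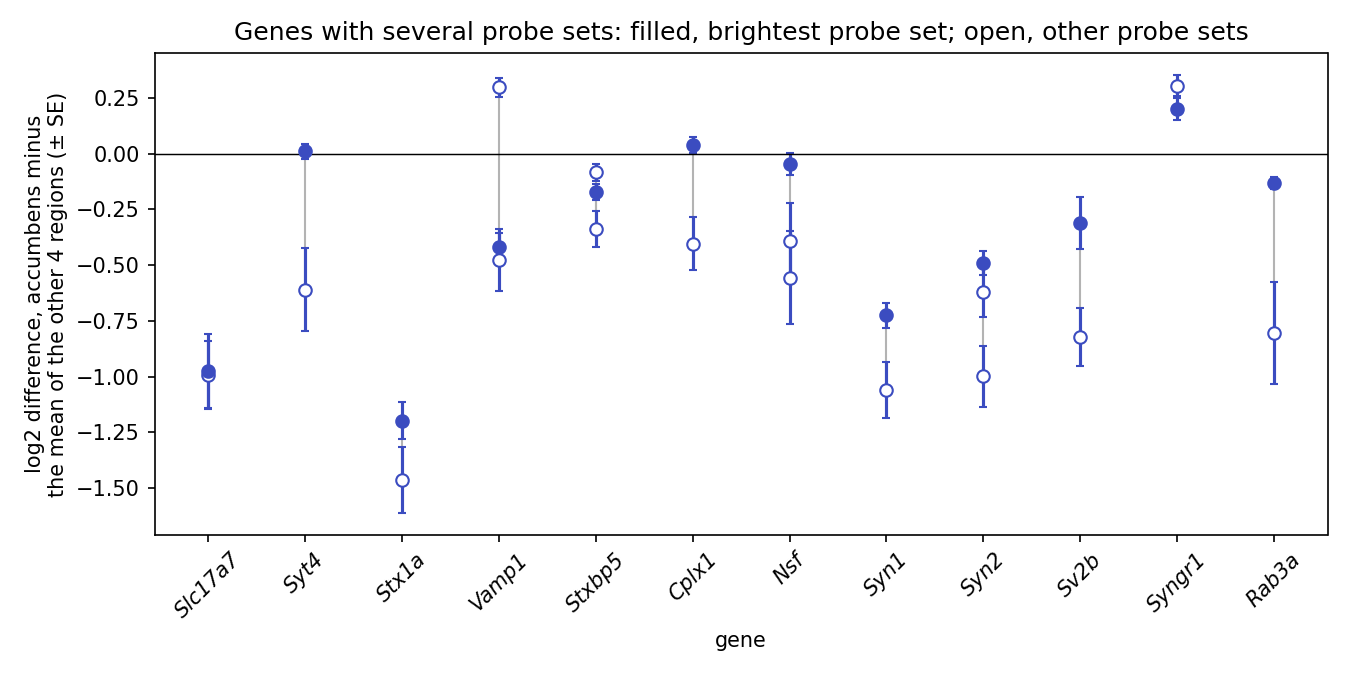
Log2 difference of accumbens from the mean of the other 4 regions (vertical axis, ± SE of the limma fit over 60 arrays) for the 12 genes with several probe sets, with a filled circle for the brightest probe set and open circles for the others. For Nsf, Rab3a, Sv2b, Syn2 and Syt4 the open circles lie below the filled one, and for Vamp1 1 of them lies above 0.

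A wider list of 67 other genes of the vesicle cycle, of which 53 were tested, was set beside these. In accumbens 35 were lower (66%, against 40.8% of all genes) and 8 higher (15.1%, against 22.5%), and in striatum 18 were lower (34%, against 49.8%) and 17 higher (32.1%, against 23.3%). Frontal cortex had 22 higher (41.5%, against 39%) and 16 lower (30.2%, against 24.9%), and hippocampus 21 higher (39.6%, against 37.8%) and 10 lower (18.9%, against 19.2%), shares near those of all genes. Amygdala had 14 higher (26.4%, against 33.9%) and 5 lower (9.43%, against 16.6%). Without the 7 arrays 9 were higher (17%, against 23.5% of all genes) and 37 lower (69.8%, against 48.3%) in accumbens. Striatum then had 19 higher (35.8%, against 26.5%) and 21 lower (39.6%, against 53.2%). Frontal cortex had 24 (45.3%, against 45.1%) and 20 (37.7%, against 28.3%), and hippocampus 26 (49.1%, against 40.3%) and 15 (28.3%, against 25.2%). Amygdala had 20 (37.7%, against 44.5%) and 9 (17%, against 20.3%). The shares lower in frontal cortex and higher in hippocampus then lay above those of all genes. With all arrays the accumbens median was -0.136 and the striatal one 0.017. Slc32a1, the vesicular GABA transporter, stood against the glutamate transporter Slc17a7 in accumbens, at 0.66 (8.58e-06), and was higher in striatum too, at 0.77 (3.19e-07), while it was lower in frontal cortex by -0.83 (8.82e-08). Synpr, synaptoporin, had the same signs (0.52, 0.82 and -0.61) and was lower in hippocampus by -0.69. Atp6v0a1, a subunit of the proton pump that drives filling, was higher in striatum by 1.06 (1.46e-22). In accumbens Rimbp2 and Sh3gl2 were the lowest, at -0.76 and -0.75, and in frontal cortex Cadps2, a priming factor, was the highest at 0.93. Rab3b was the highest in amygdala at 0.47, and in hippocampus Erc1, an active zone scaffold, led with 0.58 while Cplx3 was lowest with -0.75.

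The comparison the study states is that of the lines. No vesicle gene passed the threshold in any region, in the mean over the 5 regions of each animal or for the interaction of line and region, with all arrays or without the 7 (limma, 0 of 34 each). The share of all genes called was 0% in accumbens, amygdala, hippocampus and the interaction, 0.0193% in frontal cortex, 0.0289% in striatum and 0.106% in the mean. Without the 7 arrays it was 0.0193% in amygdala and in frontal cortex, 0.0289% in accumbens and in striatum, 0.00964% in hippocampus, 0.125% in the mean and 0% for the interaction. At an unadjusted p under 0.05 stood 6 genes in frontal cortex (508 of all 10378 genes), 4 in amygdala (454), 2 each in hippocampus (371) and striatum (473), 1 in accumbens (161), 3 in the mean (488) and 4 for the interaction (296). Without the 7 arrays there were 4 in amygdala (487), 3 in hippocampus (702) and 3 in accumbens (567). The mean then had 2 (365) and the interaction 8 (925), with frontal cortex and striatum unchanged.

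Cplx2 had the smallest line p of the list in amygdala. The 6 NP arrays lay between 9.88 and 10.10 log2 units. The congenic arrays lay at 9.09 for animal 1, 8.38 for animal 2, 10.06 for animal 3, 9.20 for animal 4, 9.51 for animal 9 and 9.44 for animal 10. The lines overlapped only through animal 3, whose amygdala array is among the 7 that stand apart. Congenic minus NP was -0.73 ± 0.20 (unadjusted p = 0.00272, adjusted p = 0.419), and -0.91 without the 7 arrays (adjusted p = 0.0894). In the same region the median line difference of the 11 markers of medium spiny neurons was -0.70 and that of the 9 cortical excitatory markers -0.07, with none called. Their part in the difference of Cplx2 was not tested.

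In frontal cortex Cplx2 lay between 9.31 and 9.82 in NP and between 8.20 and 9.74 in congenic animals, a difference of -0.50 ± 0.22 (adjusted p = 0.764) with animals 1 and 2 the lowest, at 8.58 and 8.20. In accumbens the sign was the other way, 0.45 ± 0.22 (adjusted p = 0.946), and the lowest array, NP 7, stood at 7.94. Hippocampus gave -0.16 (0.982) and striatum 0.06 (0.992). The interaction of line and region for Cplx2 had an unadjusted p of 0.000772 and an adjusted p of 0.866, and of 0.105 without the 7 arrays. The spread of Cplx2 within a line ran from an SD of 0.0902 in amygdala of NP to 0.617 in frontal cortex of congenic animals.

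Sv2b and Slc17a7, picked after their values were seen, were low on some of the arrays where Cplx2 was low. Over the list these arrays varied. Accumbens NP 7 was the lowest of its group of 6 arrays for 6 of the 34 genes and the highest for 5, amygdala congenic 2 the lowest for 4 and the highest for 4, and frontal cortex congenic 2 the lowest for 12 and the highest for 7. On accumbens NP 7, where Cplx2 stood at 7.94, Sv2b stood at 10.45 and Slc17a7 at 10.65, each the lowest of its line in that region. On amygdala congenic 2 Sv2b stood at 10.86 and Slc17a7 at 10.68, again the lowest of the line. On frontal cortex congenic 2 Slc17a7 stood at 10.50, below the other 5 congenic arrays, and Sv2b at 11.69. Other arrays did not follow. On frontal cortex congenic 1 Cplx2 stood at 8.58, while Slc17a7 was at 12.05 or above on each congenic array there but congenic 2. In striatum the lowest congenic array was animal 4 for Cplx2 (9.94) and animal 2 for Slc17a7 (12.71). The line difference of Sv2b in amygdala was -0.56 ± 0.21 (adjusted p = 0.678), with NP between 12.37 and 12.90 and congenic between 10.86 and 12.34, without overlap. In accumbens it was 0.56 (0.946).

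Neither glutamate transporter passed between the lines. Slc17a6 had a difference of 0.16 ± 0.07 in the mean over regions (adjusted p = 0.911), which was 0.06 without the 7 arrays. Slc17a7 had differences from -0.33 in amygdala to 0.13 in hippocampus, with adjusted p from 0.866 to 0.993 over the 5 regions, and its accumbens difference was -0.23 with all arrays and 0.40 without the 7.

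The other genes with the smallest line p of a region had small differences. Rims1 in hippocampus was at 0.34 ± 0.10 (adjusted p = 0.982), Syt7 in frontal cortex at 0.21 ± 0.06 (0.586) and Sv2a in striatum at -0.16 ± 0.07 (0.988). In the mean over regions Sv2a was at -0.10 ± 0.03 (0.885). Rph3al changed sign between regions, at -0.14 in accumbens (0.946), 0.15 in amygdala (0.843), 0.12 in frontal cortex (0.74) and -0.15 in hippocampus (0.982), with an unadjusted interaction p of 0.000588 (adjusted p = 0.866).

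**Figure D5:**
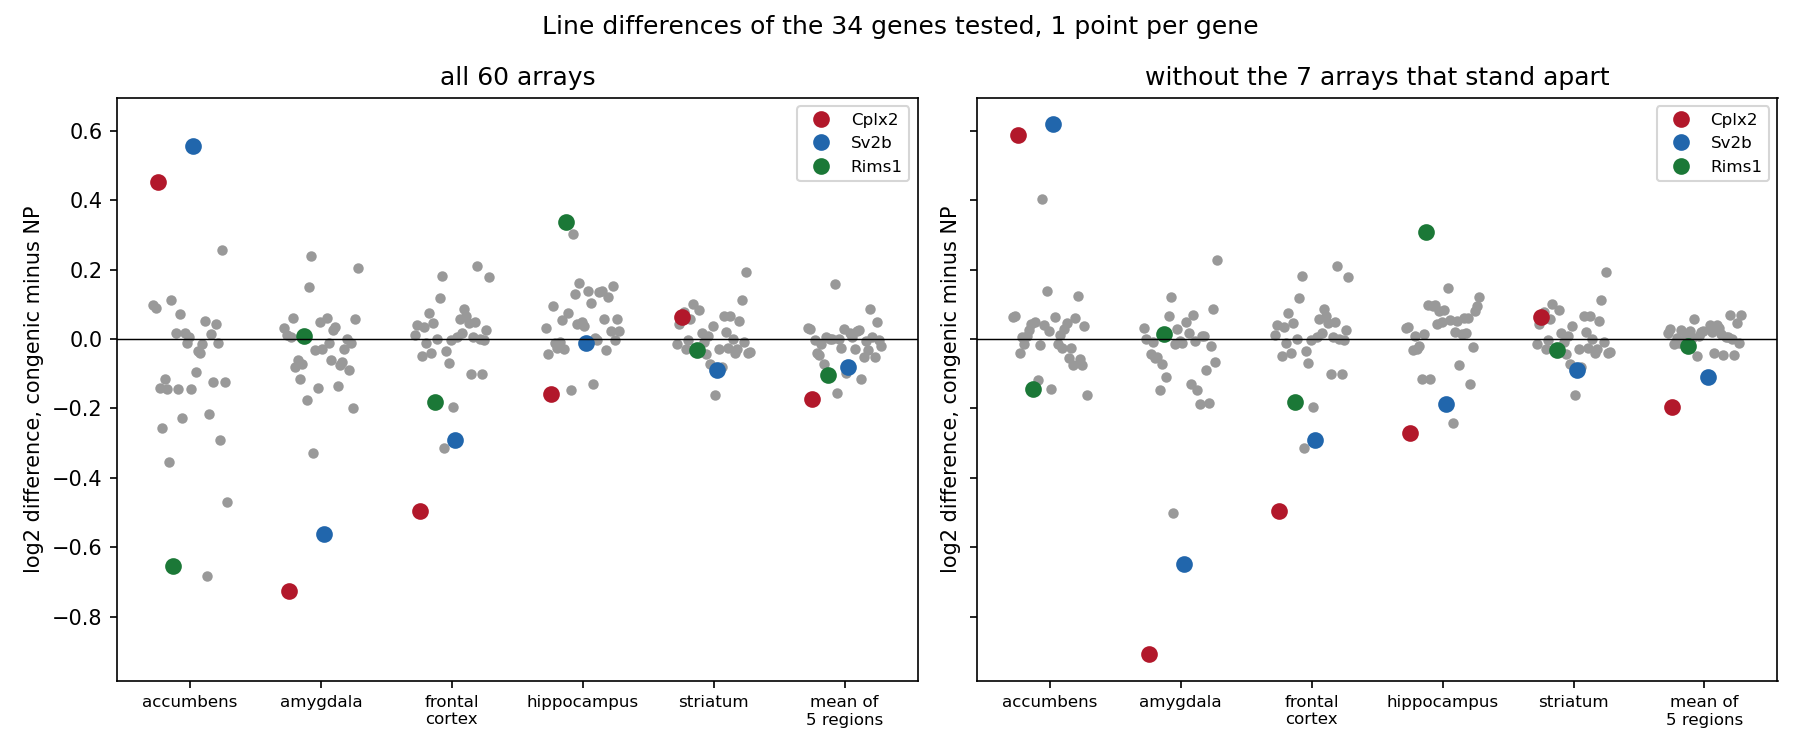
Congenic minus NP in log2 units (vertical axis) for the 34 genes, 1 point each, in every region and in the mean over regions, with all 60 arrays (left) and without the 7 that stand apart (right). No point passed the threshold; Cplx2 (red) and Sv2b (blue) lie above 0 in accumbens (0.45 and 0.56) and below it in amygdala (-0.73 and -0.56).

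The congenic segment lies on chromosome 4, which carries 3 of the 34 genes. In the gene order of GRCr8, with 590 genes tested on the chromosome, Pclo held place 46, Syn2 place 432 and Vamp1 place 506. Of the 11 genes called between the lines in the mean over regions, those placed on this chromosome ran from place 148 (Akr1b1) to 245 (Ppm1k), with Magi1 at 379. None of the 3 vesicle genes lay between the first and the last of the run nor beside Magi1. Their line differences in the mean were -0.07 for Pclo (adjusted p = 0.927), 0.01 for Syn2 (0.987) and -0.004 for Vamp1 (0.999).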

How the data were processed

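Values of 31042 probe sets on 60 arrays (57 control probe sets left out) were taken from the values the authors deposited, which stand on a log2 scale, as their range shows, between 4.58 and 16.01. Background correction and normalization are not given in the sources used here, and 75th percentiles differ by up to 0.249 between arrays. Probe sets were named from the platform's annotation: 20826 carry 1 symbol, 436 several and 9780 are unnamed here. Probe sets with a mean at or above the 40th percentile (7.68) were tested.

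Regions were compared with limma 3.58.1 in R 4.3.3 with data.table version 1.17.8, with the animal as a fixed block since the labels tie the 5 regions to an animal. Deviations of arrays from 1 animal correlated at 0.0139 (120 pairs), those of different animals at -0.00627 (600 pairs). Lines were compared per region (6 against 6 arrays), on animal means, and for an interaction (F test). Tests were 2-sided, with Benjamini-Hochberg adjustment over 18625 probe sets. Arrays whose median correlation with their region was under 0.98, or whose correlation with its profile was under 0.5, stand apart. The code was tested on simulated data. Figures used Python 3.11.15, matplotlib 3.10.9, numpy 2.4.6 and pandas 2.3.3.

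The genes, marker lists and these limits were chosen with earlier results of these data known. Genes shown with values in every region were Cplx2, the 2 glutamate transporters and the genes with the highest and lowest contrast of a region. For the lines they were Cplx2, Rph3al and the gene of smallest p in each comparison. Other vesicle cycle genes were named from the 2 highest and 2 lowest called of a region. Values of Sv2b, of Slc17a7 on the arrays where Cplx2 was low, of Syt1 on accumbens congenic 9, of the line difference of Slc17a6 and of 5 cortical markers were named after they were seen. Alternatives covered normalization, filter, prior, blocks, all probe sets, and leaving out animals or arrays.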

Additional observations from a re-analysis of the deposited data

Results flagged for a closer look

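Of 100 groups of 6 arrays scanned for the genes given in full, 13 held an array whose gap to its nearest neighbour took up more of the group's range than the critical value of Dixon's test for 6 values allows, where chance gives about 1 in 20. Of these, 10 lie on arrays that stand apart from their labelled region. On accumbens congenic 9, Rims1 stood at 6.44 (nearest 9.33) and Slc17a7 at 9.00 (nearest 11.32). Amygdala congenic 3 held Stx1a at 11.05 (nearest 11.88), Syt11 at 9.46 (8.68), Syt7 at 8.28 (7.75) and Unc13c at 7.69 (9.77). On accumbens NP 8 Unc13c stood at 7.94 (nearest 9.72). Hippocampus NP 8 held Unc13c at 9.89 (8.19) and Slc17a7 at 11.36 (12.01), and hippocampus congenic 3 held Unc13c at 10.12 (7.82). The remaining 3 lie on arrays that matched their region: Slc17a7 at 10.50 on frontal cortex congenic 2 (nearest 12.05), Sv2a at 10.06 on striatum NP 8 (10.26) and Syt7 at 7.57 on hippocampus congenic 1 (7.84).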

How the results depend on the processing

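Counts of vesicle genes called by region stayed within 1.5 times of the reported ones under the alternatives run, apart from 4. With all 50 probe sets counted in place of 34 genes, accumbens had 5 higher and 36 lower. Quantile normalization gave 5 genes higher in accumbens, where 3 were reported, and 19 lower. With the filter at the 60th percentile, 7 genes were lower in frontal cortex. None of the 6 region differences and 6 line differences of single genes recomputed under the alternatives reversed. The line difference of Slc17a7 in accumbens, not among these and not called, was -0.23 with all arrays and 0.40 without the 7. Leaving out each animal, or each of the 7 arrays singly (added after seeing the data), gave 2 to 4 higher and 22 to 23 lower in accumbens, 7 to 8 and 9 to 12 in amygdala, 15 to 15 and 10 to 13 in frontal cortex, 6 to 8 and 13 to 15 in hippocampus, and 19 to 19 and 5 to 6 in striatum. Without the replicate block of the animal, 3 genes were higher and 23 lower in accumbens, 7 were higher in hippocampus where 8 were reported, and no other count of the list changed. The line and interaction counts were 0 under each alternative. The adjusted p of Cplx2 in amygdala ran from 0.0798 to 0.836 over the leave-outs. Moving between the deposited scale, quantile normalization and centring on medians shifted the median contrast of all probe sets in accumbens from -0.0513 to 0.0101 and -0.0671. Depth does not apply to arrays, and 6 animals per line limit what line differences can be seen.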
